A study of Homo sapiens with 9 samples.

Results

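Transcripts of the RAS, RAF, MEK and ERK cascade were measured in 3 stable lines of HEK293, cells of human embryonic kidney origin, expressing MEK1 with an HA tag as WT, F53S or K57N. The genes described were MAP2K1, MAP2K2, MAPK3, BRAF, ARAF, KSR1 and HRAS, chosen by name, and the array carried 9 probes for these 7 genes among 50598 probes for 36334 gene names. F53S is a MEK1 mutation of RASopathies, developmental disorders with germline changes in this pathway, and K57N is a mutation of sporadic cancers. All 3 lines carried the tagged MEK1 on the puromycin-selected plasmid pQCXIP beside the cells' own MEK1, so WT cells were a control for the mutation and not for added MEK1. Total RNA was taken under steady-state conditions from 3 experiments per line. There was 1 line per form of MEK1, so the mutation cannot be told apart from other differences between lines, and p-values measure only the spread between experiments.

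In this cascade, RAS proteins such as HRAS are small GTPases that, once loaded with GTP, bring RAF kinases such as ARAF and BRAF to the membrane. RAF kinases phosphorylate the MEK kinases, MEK1 and MEK2, which are encoded by MAP2K1 and MAP2K2. MEK in turn phosphorylates the ERK kinases, among them ERK1 from MAPK3, and KSR1 is a scaffold that holds RAF, MEK and ERK together. Much of the control of this cascade is by phosphorylation, which a transcript array does not read.

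Values are log2 of the processed signal less the 75th percentile of the same array, so that 0 stands for the signal at that percentile. Tests were run on probes that cleared the scanner's background limit (well above background) on every array of 1 line or more, which held for 25400 probes of 19109 genes and for 7 probes of 6 of the 7 cascade genes, KSR1 being the exception. Replicate 1 of each line was hybridized on slide 1, and replicates 2 and 3 on slide 2. The 75th percentile ranged from 245 to 376.25 on slide 1 (3 arrays) and from 695 to 821 on slide 2 (6 arrays), so slide 1 was the dimmer one. Of 9 markers of HEK293 cells, 7 cleared background on each of the 9 arrays, and NEFM and INA on 6 and 4. Of 7 markers of blood, liver, endothelium and fibroblasts, the liver gene ALB and the fibroblast gene DCN were on 0 arrays, whereas PTPRC, CDH5 and COL1A1 were above background on all 9 at 1 probe or more, with mean log2 values over the 9 arrays of at most -3.81, -2.79 and -0.66 over their probes. The other blood and endothelial markers, CD3E and PECAM1, cleared it on 7 and 2 arrays.

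The probes decide which part of each transcript was read, so their sequences are given here as listed in the array files, 5′ to 3′ on the strand of the transcript, with positions on hg19. Of the MAP2K1 probe, the first 30 of its 60 bases are shown, because the probe lies in the 3′ untranslated region.
MAP2K1: acagtgaaattttggtgaatgtgggtagtc
MAP2K2: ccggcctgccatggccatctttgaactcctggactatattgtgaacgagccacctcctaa
MAPK3: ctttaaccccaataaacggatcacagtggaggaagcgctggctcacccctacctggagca
BRAF: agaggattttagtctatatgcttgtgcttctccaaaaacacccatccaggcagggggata
ARAF: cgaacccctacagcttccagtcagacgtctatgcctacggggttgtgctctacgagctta
HRAS: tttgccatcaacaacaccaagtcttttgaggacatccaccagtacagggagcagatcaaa
KSR1: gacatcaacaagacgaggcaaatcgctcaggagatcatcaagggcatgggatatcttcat

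The MAP2K1 probe covers chr15:66783224-66783283 on the plus strand and begins at base 1927 of its transcript, NM_002755, past the end of the coding region. The sources used here do not say whether the plasmid's MEK1 insert carries this stretch, so the probe is no check of the transgene. MAPK3 was read at chr16:30128237-30128296 and BRAF at chr7:140434419-140434478, both on the minus strand and each within 60 adjoining bases of the genome. The MAP2K2 probe spans 1889 bases at chr19:4095437-4097325, and the HRAS probe spans 213 bases at chr11:533600-533812, so both cross at least 1 intron and match spliced RNA. The ARAF sequence above, from NM_001654, lies at chrX:47429320-47429379. A second ARAF probe was designed to the Ensembl transcript ENST00000377039 and lies upstream, at chrX:47424996-47425055, with a stop codon in all 3 reading frames. The G and C content was 53.3% for MAP2K2, 55% for MAPK3 and for this first ARAF probe, 45% for BRAF and HRAS, 41.7% for MAP2K1, and 35% for the second ARAF probe. RefSeq (GRCh38.p14) lists pseudogenes of MAP2K1, BRAF and ARAF, and whether the probes also bind RNA from these was not tested.

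MAP2K1 itself was higher in K57N cells than in WT and F53S cells. Its log2 values were 2.36, 2.34 and 2.42 in WT cells, 2.50, 2.39 and 2.46 in F53S cells, and 2.92, 2.81 and 2.82 in K57N cells. The 3 K57N arrays lay above all 6 others, whereas F53S and WT arrays overlapped. The K57N value exceeded WT by 0.48 (SE 0.13, 1.39-fold), and by 0.56, 0.47 and 0.40 in replicates 1, 2 and 3. With 1 mean per line in limma, the adjusted p was 0.135. With the replicate number as a term, which compares arrays of the same number, the adjusted p was 0.0188, and with slide as a term it was 0.00758. The sources do not say whether arrays of 1 number in different lines share an experiment. Against F53S cells, the K57N value was higher by 0.40 (SE 0.13, 1.32-fold), with adjusted p = 0.308 for 1 mean per line, 0.0445 with the replicate number and 0.0211 with slide.

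The rise of MAP2K1 in K57N cells over WT cells kept an adjusted p below 0.05 in all 9 fits with slide as a term that each left out 1 array, with the highest at 0.0395. Against F53S cells it did so in 4 of 9 such fits, and was lost without any 1 of F53S replicates 1, 2 and 3 or of K57N replicates 2 and 3. On the 6 arrays of slide 2 alone, the differences from WT and from F53S were 0.43 (adjusted p = 0.0143) and 0.39 (adjusted p = 0.0249). F53S cells differed from WT by 0.08, with a 95% confidence interval from -0.23 to 0.39 for 1 mean per line and from -0.14 to 0.29 with the replicate number. In this bulk RNA, more cells with the transcript and more transcript per cell cannot be told apart.

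**Figure D1:**
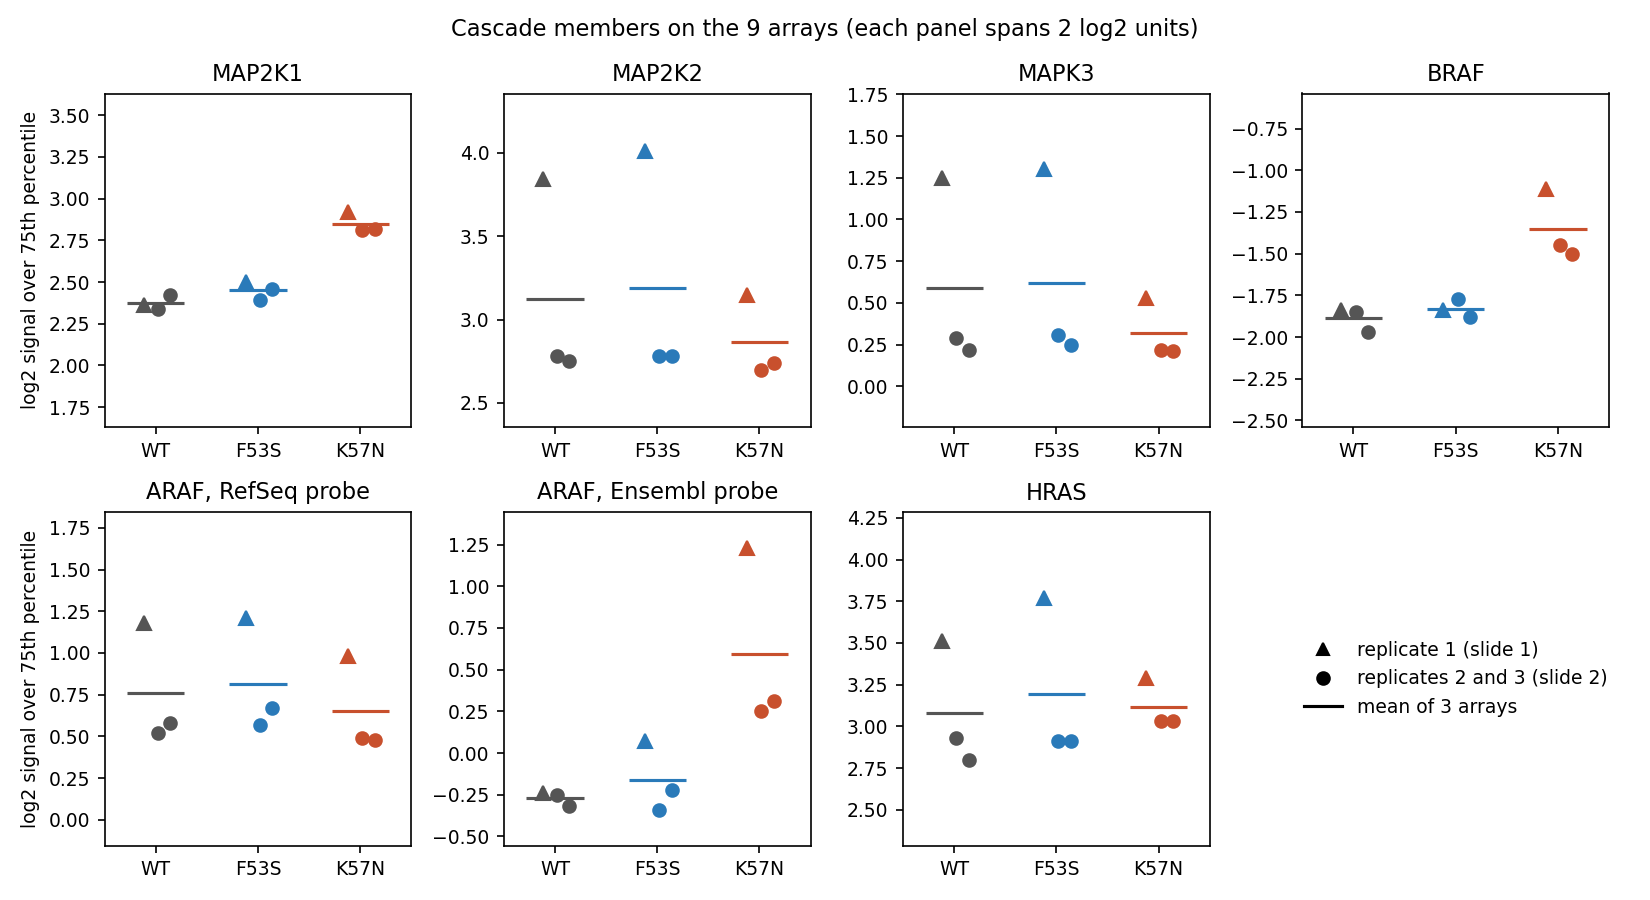
Each panel plots 1 probe, with the cell line on the x axis and the log2 signal over the array's 75th percentile on the y axis. Triangles are replicate 1 (slide 1), circles replicates 2 and 3 (slide 2), and lines the mean of 3 arrays. MAP2K1, BRAF and the Ensembl probe of ARAF lie higher on every K57N array than on any WT or F53S array, whereas MAP2K2, MAPK3, HRAS and the RefSeq probe of ARAF are set apart by slide.

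Among the other 5 genes with a tested probe, BRAF alone passed the test with the replicate number as a term at the probe that stands for the gene. With 1 mean per line, 0 of these 5 genes were called in K57N cells against WT, where 2.77% of the 19109 genes were called. By unadjusted p, 1 of the 5, BRAF, was below 0.05, as were 2521 of the 19109 genes. With MAP2K1 counted, 2 of 6 were called with the replicate number and 2 of 6 with slide, both times MAP2K1 and BRAF, where 14.8% and 19.4% of all genes were called. The K57N and WT arrays did not overlap for 2 of 6, again MAP2K1 and BRAF, and for 22.9% of all genes. With so few members, these shares are a description and not evidence that the cascade stands apart.

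BRAF encodes the RAF kinase with the highest basal activity. Its log2 values, each the mean of 10 spots, were -1.84, -1.85 and -1.97 in WT cells, -1.84, -1.77 and -1.88 in F53S cells, and -1.11, -1.45 and -1.50 in K57N cells. The K57N arrays were above all others, and replicate 1 was the highest of them. The difference from WT was 0.53 (SE 0.16, 1.45-fold), and 0.73, 0.40 and 0.47 in the 3 replicates. The adjusted p was 0.158 for 1 mean per line, 0.0261 with the replicate number, 0.014 with slide and 0.0233 on slide 2 alone, where the difference was 0.43. With slide as a term, the call held in 7 of 9 fits that left out 1 array, and was lost without WT replicate 1 or WT replicate 3, at an adjusted p of up to 0.068.

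Compared with F53S cells, BRAF in K57N cells was higher by 0.47 (SE 0.16), with adjusted p = 0.304 for 1 mean per line, 0.0504 with the replicate number and 0.0297 with slide. This last call held in 3 of 9 fits that left out 1 array with slide as a term, and was lost without WT replicate 2 or 3, any F53S replicate or K57N replicate 2. After normexp background correction, with 1 mean per line, the BRAF difference was 0.36 from WT (adjusted p = 0.667) and 0.29 from F53S (adjusted p = 0.974). F53S cells differed from WT by 0.06, with a 95% confidence interval from -0.21 to 0.33 with the replicate number as a term. Over the 9 arrays, after the mean of each replicate number was removed, BRAF and MAP2K1 values had r = 0.95, which is a description over 9 points that share their lines.

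ARAF, the RAF kinase with the weaker catalytic activity, gave different answers at its pair of probes. The RefSeq probe, which had the higher signal and stands for the gene, gave 1.18, 0.52 and 0.58 in WT cells, 1.21, 0.57 and 0.67 in F53S cells, and 0.98, 0.49 and 0.48 in K57N cells. The lines overlapped, and the K57N value differed from WT by -0.11 (SE 0.26, adjusted p = 0.977, and 0.438 with the replicate number). The Ensembl probe gave -0.24, -0.25 and -0.32 in WT cells, 0.07, -0.34 and -0.22 in F53S cells, and 1.23, 0.25 and 0.31 in K57N cells. Here the K57N arrays were above all others, by 0.87 over WT (SE 0.27, 1.83-fold) and by 1.47, 0.51 and 0.63 in the 3 replicates.

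For the Ensembl probe of ARAF, the adjusted p against WT was 0.171 for 1 mean per line, 0.0282 with the replicate number and 0.014 with slide. On slide 2 alone, the difference of this ARAF probe was 0.57 (adjusted p = 0.00987). Leaving out WT replicate 1 took it to 0.0548 with slide as a term, and the other 8 such fits kept the call. Against F53S cells, the difference was 0.76, with adjusted p = 0.335, 0.057 and 0.0317 in the same order, and the last call held in 4 of 9 fits with slide. Within each array, the log2 value of the Ensembl probe less that of the RefSeq probe was -1.42, -0.77 and -0.90 in WT cells, -1.14, -0.91 and -0.89 in F53S cells, and 0.25, -0.23 and -0.17 in K57N cells. This within-array difference was 0.98 higher in K57N cells than in WT cells and 0.93 higher than in F53S cells, each with p = 0.1 in a two-sided exact permutation test, the smallest p that 3 arrays against 3 allow. This test was chosen after the probes were seen to disagree and could not pass 0.05, so the contrast between probes is a description.

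**Figure D2:**
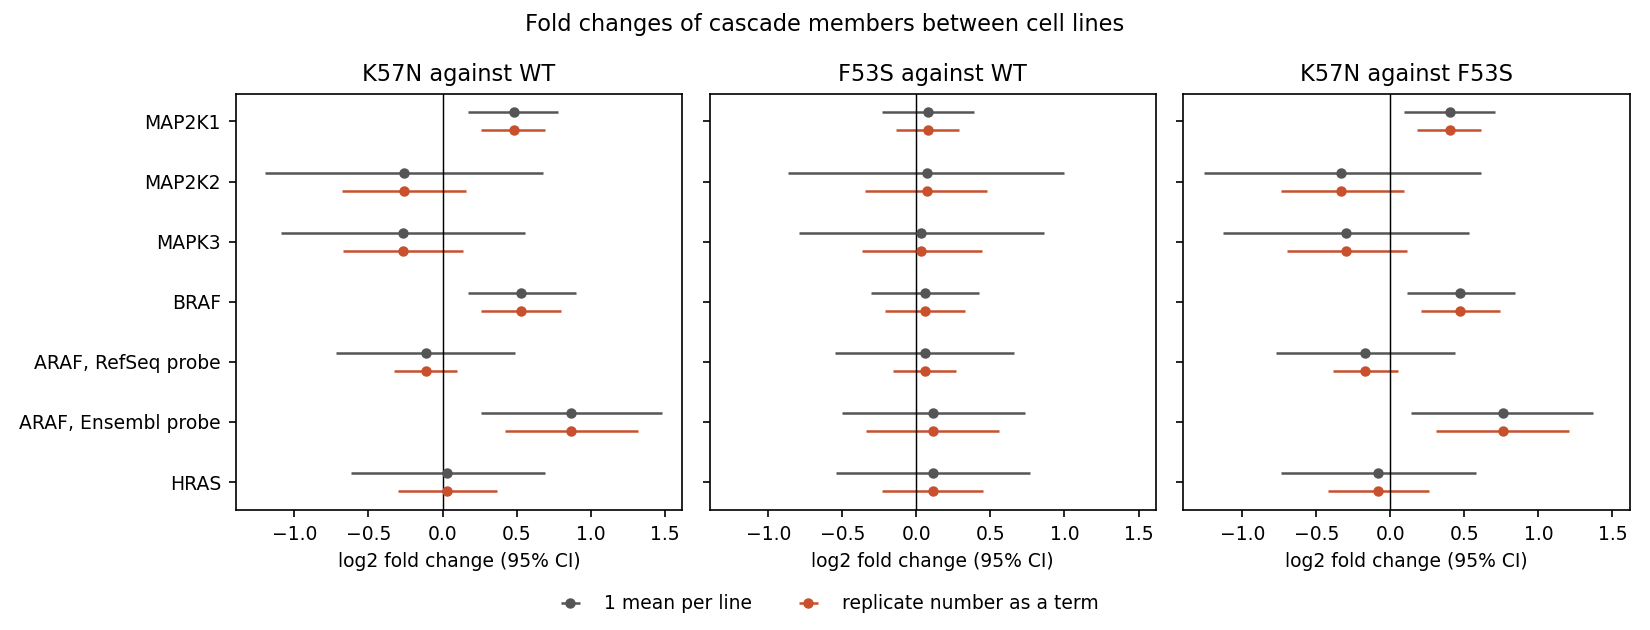
Each panel shows 1 comparison, with the log2 fold change and its 95% confidence interval on the x axis and the probes on the y axis. Grey marks a fit with 1 mean per line and red a fit with the replicate number as a term, each on 9 arrays. For K57N against WT, the intervals for MAP2K1, BRAF and the Ensembl probe of ARAF lie above 0 in both fits before adjustment, and in F53S against WT all intervals cover 0.

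MAP2K2, MAPK3 and HRAS were not called in any comparison, and their largest contrast was between the slides. MAP2K2, which encodes MEK2, had log2 values of 3.84, 2.78 and 2.75 in WT cells, 4.01, 2.78 and 2.78 in F53S cells, and 3.15, 2.70 and 2.74 in K57N cells. Replicate 1 was above replicates 2 and 3 in every line, by 1.07, 1.23 and 0.44 over their mean in WT, F53S and K57N cells. The K57N value differed from WT by -0.68, -0.08 and -0.02 in replicates 1, 2 and 3, and by -0.26 over all (SE 0.41, adjusted p = 0.947, and 0.356 with the replicate number, whose 95% confidence interval ran from -0.68 to 0.16). Nearly all of this mean came from slide 1, and on slide 2 alone the difference was -0.05.

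MAPK3, which encodes ERK1, followed the same pattern. Its log2 values, each over 10 spots, were 1.25, 0.29 and 0.22 in WT cells, 1.30, 0.31 and 0.25 in F53S cells, and 0.53, 0.22 and 0.21 in K57N cells. The difference between K57N and WT cells was -0.73 in replicate 1 but -0.07 and -0.01 in replicates 2 and 3. Its mean of -0.27 (SE 0.36) had an adjusted p of 0.925, and of 0.332 with the replicate number. With the replicate number as a term, the 95% confidence interval ran from -0.67 to 0.14.

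HRAS values were 3.51, 2.93 and 2.80 in WT cells, 3.77, 2.91 and 2.91 in F53S cells, and 3.29, 3.03 and 3.03 in K57N cells. The K57N value less the WT value was -0.22 in replicate 1 and 0.09 and 0.23 in replicates 2 and 3, so the replicates disagreed in direction. The mean difference was 0.03 (SE 0.29, adjusted p = 0.992, and 0.894 with the replicate number), with a 95% confidence interval from -0.30 to 0.37 in the latter fit. These intervals do not show that MAP2K2, MAPK3 and HRAS had the same level in the lines, and changes within the intervals given with the replicate number could not be told from 0.

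The step between slides ran with the G and C content of the probe across the array. Its correlation with that content was r = 0.4 for WT, 0.44 for F53S and 0.33 for K57N arrays. Over the 4853 genes whose probe had 50% or more G and C, replicate 1 less the mean of replicates 2 and 3 had a median of 0.79 for WT, 0.94 for F53S and 0.47 for K57N. Over the 6085 genes under 40%, these medians were -0.12, -0.16 and -0.08. In the richer class, the median difference between K57N and WT arrays was -0.29 for replicate 1 and 0 and -0.09 for replicates 2 and 3. The replicate 1 differences of MAP2K2, MAPK3 and ARAF (RefSeq probe), of this richer class, were -0.68, -0.73 and -0.20. The class of 40% to under 50% had medians of -0.12, 0.01 and -0.01 in replicates 1, 2 and 3. MAP2K1 and BRAF are in that class and were higher in K57N cells in all 3 replicates. HRAS is in this middle class too, but its replicate 1 exceeded the mean of replicates 2 and 3 by 0.64, 0.86 and 0.26 in WT, F53S and K57N cells, above the class medians of 0.21, 0.25 and 0.06. With the G and C trend of each array subtracted, MAP2K1 was higher in K57N than in WT cells by 0.45, with adjusted p = 0.204 for 1 mean per line and 0.0176 with the replicate number, and BRAF by 0.53 (0.126 and 0.0256). MAP2K2, MAPK3, ARAF (RefSeq probe) and HRAS then gave -0.19, -0.18, -0.03 and 0.03, and were not called. Whether G and C content causes any of these differences was not tested.

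**Figure D3:**
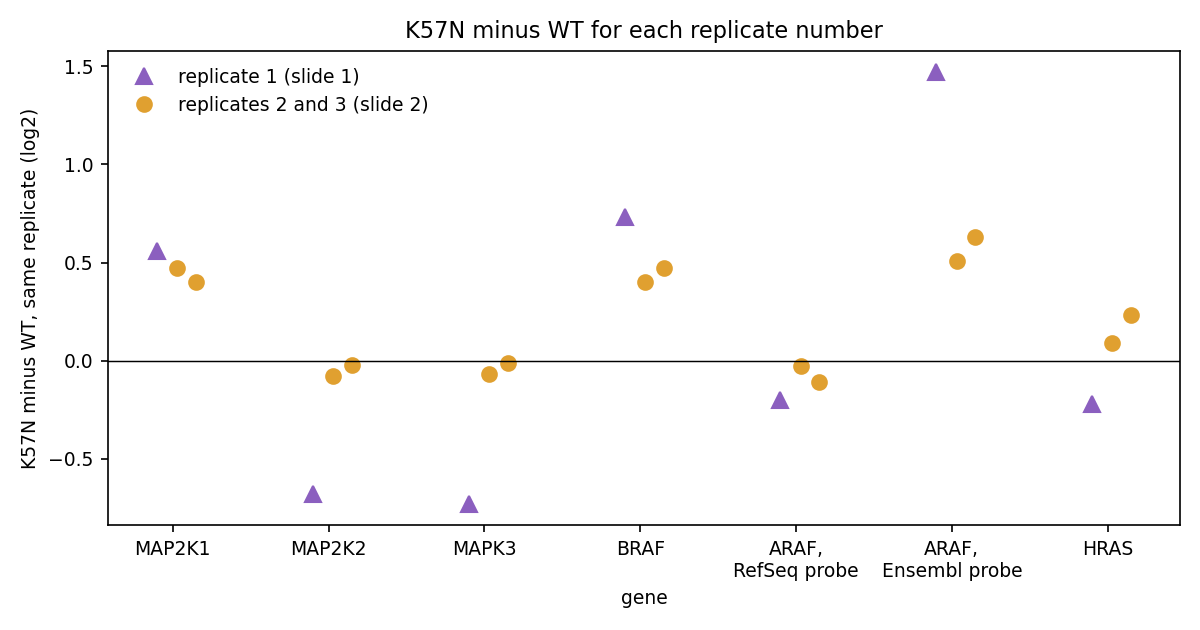
The y axis is the log2 value of a K57N array less that of the WT array of the same replicate number, for each probe on the x axis. The triangle is replicate 1 (slide 1) and the circles are replicates 2 and 3 (slide 2). All 3 differences are above 0 for MAP2K1, BRAF and the Ensembl probe of ARAF, those of MAP2K2 and MAPK3 are near 0 on slide 2 and below -0.6 on slide 1, and those of HRAS have both signs.

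KSR1, the scaffold, gave no testable value. Its probe listed above, at chr17:25934995-25936239, cleared background on 1 array of WT cells, 2 of F53S cells and 2 of K57N cells, and its second probe on 0 of 9 arrays. On the first probe, the log2 values were -4.79, -4.48 and -4.76 in WT cells, -4.41, -4.69 and -4.74 in F53S cells, and -4.04, -2.56 and -5.25 in K57N cells. One K57N array, replicate 2, was far above the rest, and the other K57N arrays were not. The level of KSR1 was therefore near the detection limit of these arrays in all 3 lines, and no difference between lines could be read.

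No gene of the cascade was called in F53S cells. In F53S against WT, 0 of the 6 genes were called with 1 mean per line, with the replicate number or with slide, and 0% of all 19109 genes were called in each of these fits. By unadjusted p with 1 mean per line, 0 of the 6 genes and 172 of all 19109 genes were below 0.05. The t-test named in the methods put 0 of the 6 there. The fit with 1 mean per line leaves the step between slides in its spread (for MAP2K2, SE 0.41, and 0.16 with slide). These counts do not show that levels were equal in F53S and WT cells. The differences of the 5 genes other than MAP2K1 were between 0.03 and 0.11, with a median of 0.06 beside 0.01 for all genes. All 5 were above 0, as were 10368 of the 19109 genes. Without F53S replicate 1, MAP2K2, MAPK3, ARAF (RefSeq probe) and HRAS gave -0.34, -0.31, -0.14 and -0.17. Their directions were therefore not stable, whereas that of BRAF did not turn. The arrays of F53S and WT cells overlapped for all 6, and did not overlap for 3.16% of all genes.

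The comparison of K57N with F53S cells shares its K57N arrays with that against WT. With 1 mean per line, 0 of the 6 genes were called, and 1.42% of all genes. With the replicate number, MAP2K1 was called, where 8.91% of all genes were called, and with slide both MAP2K1 and BRAF, where 13.4% were. The arrays did not overlap for MAP2K1 and BRAF, and for 18.7% of all genes. MAP2K2, MAPK3, ARAF (RefSeq probe) and HRAS gave -0.33, -0.30, -0.17 and -0.08, none of them called in any of these fits.

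The wider cascade was described over 41 more genes, of which 34 were tested. With 1 mean per line, 1 of 34 was called in K57N cells against WT, with the replicate number 6 of 34 (1 higher and 5 lower, 17.6%), and with slide 7 of 34 (2 higher and 5 lower, 20.6%). The percentages for all genes in the same fits are those given above, 2.77%, 14.8% and 19.4%, so the wider list was not far from the background. Its median difference was -0.05, beside -0.06 for all genes. In F53S cells, 0 of 34 were called in any of these fits. By unadjusted p with 1 mean per line, 0 of 34 were below 0.05, beside 172 of the 19109 genes. With the replicate number 0 of 34 were below it, and with slide 1, CNKSR1. The share of all genes at this limit was not counted for the fits with a term.

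The gene called with 1 mean per line was CNKSR1, a scaffold that binds RAF downstream of RAS. Its log2 values were -1.64, -1.45 and -1.45 in WT cells, -1.66, -1.82 and -1.85 in F53S cells, and -2.78, -2.77 and -2.66 in K57N cells. The 3 lines did not overlap, and K57N cells stood furthest off. CNKSR1 fell by 1.22 in K57N cells against WT (SE 0.14, 0.428-fold, adjusted p = 0.00425, and 0.0013 with the replicate number) and differed by -0.96 from F53S cells (SE 0.14, adjusted p = 0.0213, and 0.00505 with the replicate number). The difference of F53S from WT, -0.26, was not called (adjusted p = 1). Against WT, the call held in all 9 fits that left out 1 array, with adjusted p from 0.00421 to 0.0335. Against F53S cells it held in 2 of 9, and with slide as a term in 9 of 9 for both comparisons. The call against F53S was lost in fits of 2 lines only (adjusted p = 0.0853) and with the methods' t-test (0.0558). It was also lost with the G and C trend subtracted (difference -1.03, adjusted p = 0.0586). It held with quantile normalization (0.0257) and with the deposited values (0.0247). With no filter on dim probes, the differences stayed at -1.22 and -0.96 but the adjusted p was 0.0592 and 0.218, and after normexp background correction they were -0.85 and -0.68 (adjusted p = 0.0749 and 0.254).

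At the level of RAS, NRAS differed between K57N and WT cells by 0.24 (SE 0.15, adjusted p = 0.635), and was not called with the replicate number or slide. At this probe the K57N arrays did not overlap those of WT, and at a second NRAS probe, with a difference of 0.19 (SE 0.29, adjusted p = 0.941), they did. The RAS relatives RRAS and MRAS were lower in K57N cells. For RRAS, the values were 2.22, 1.02 and 1.34 in WT cells, 2.48, 1.13 and 1.30 in F53S cells and 0.90, 0.63 and 0.61 in K57N cells, without overlap. The difference of RRAS from WT was -0.81 (SE 0.41), with adjusted p = 0.482 for 1 mean per line, 0.0481 with the replicate number and 0.0312 with slide. Its probe has 55% G and C, and the difference was -1.32 on slide 1 and -0.40 and -0.73 on slide 2, where the fit of slide 2 alone gave -0.56 (adjusted p = 0.0401). Without WT replicate 1, the RRAS difference with 1 mean per line was -0.47. MRAS differed by -0.43 (SE 0.19, adjusted p = 0.368, 0.0409 with the replicate number and 0.0263 with slide), and by -0.39 on slide 2 alone (adjusted p = 0.0793).

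RAS is switched off by GTPase-activating proteins, and of the 7 tested, RASA3 was higher in K57N cells. RASA3 values were 1.76, 1.41 and 1.28 in WT cells, 1.95, 1.48 and 1.58 in F53S cells, and 2.75, 2.13 and 2.24 in K57N cells. Every K57N array was above all others, and the differences from WT were 0.99, 0.72 and 0.96 in the 3 replicates. Their mean of 0.89 (SE 0.23, 1.86-fold) had an adjusted p of 0.101 for 1 mean per line, 0.00291 with the replicate number and 0.000759 with slide, and all 9 fits with slide that left out 1 array kept the call. Against F53S cells, RASA3 was higher by 0.71 (adjusted p = 0.286, 0.0107 with the replicate number and 0.00343 with slide), again in all 9 such fits. RASA2 was higher by 0.50 than in WT cells (SE 0.23, adjusted p = 0.408), and passed only with slide as a term (0.0458, against 0.0748 with the replicate number). The RASA2 probe cleared background on 2 of 3 WT arrays and on all 3 of each mutant line. It was thus tested only through the lines where it was higher, and its call, counted among the 7 with slide, is a description. The RASA2 difference was 0.16 after normexp background correction, and 0.29 without WT replicate 1.

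Among adaptors, GAB2, which docks signaling proteins to receptors, differed from WT by -0.46 (SE 0.21, adjusted p = 0.41, 0.035 with the replicate number and 0.0175 with slide), although its K57N and WT arrays overlapped. None of the 4 tested exchange factors, which load RAS with GTP, was called with any of the 3 fits.

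Downstream of ERK, RPS6KA2, one of the ribosomal S6 kinases that ERK activates, differed from WT by -0.60, -0.83 and -0.67 in the 3 replicates (mean -0.70, SE 0.18, adjusted p = 0.0942, 0.00648 with the replicate number and 0.00182 with slide). A second tested RPS6KA2 probe did not show this, at 0 (SE 0.18, adjusted p = 1), and the mean of the gene's probes gave -0.35. The other 6 kinases of this role were not called at the probe that stands for the gene.

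**Figure D4:**
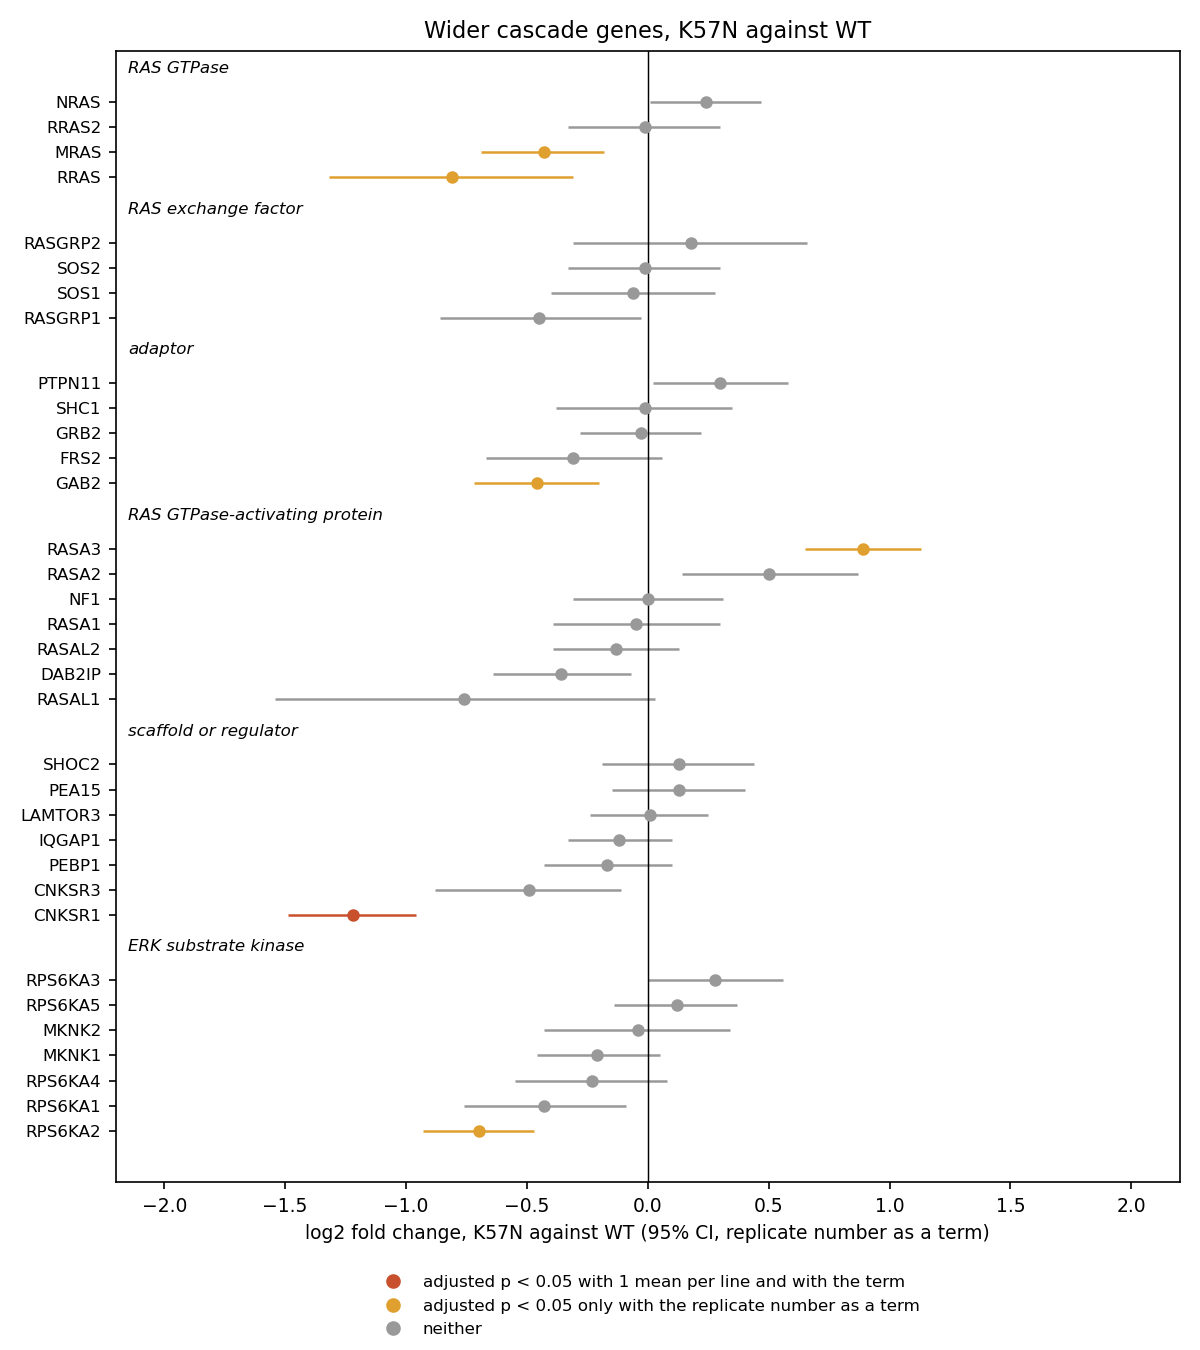
The x axis is the log2 fold change of K57N against WT with its 95% confidence interval, from a fit with the replicate number as a term, for the 34 tested genes of the wider cascade on the y axis, grouped by role. Red marks CNKSR1, called in both fits, orange the 5 genes called only with the replicate number, and grey the rest. CNKSR1 lies lowest, at -1.22, and RASA3 highest, at 0.89.

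The parallel MAP kinase cascades of JNK, p38 and ERK5 were read from 13 genes, of which 12 were tested. In K57N against WT with 1 mean per line, 0 of 12 were called, beside 2.77% of all genes. By unadjusted p in that fit, 1 of 12 was below 0.05, beside 2521 of the 19109 genes. With the replicate number and with slide, 1 was called, MAP2K6, named after its value was seen. This is 8.33% of the 12 in each of those fits, beside 14.8% and 19.4% of all genes. MAP2K6, which encodes a kinase of p38, gave a difference of -1.04 (SE 0.23), with adjusted p = 0.0566 for 1 mean per line, 0.0246 with the replicate number and 0.012 with slide.

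The 5 genes with the pattern most like that of MAP2K1 were sought among the 16951 genes that cleared background on each of the 9 arrays, after the mean of each replicate number was removed. They were PRR22 (r = 0.999), AHR (r = 0.998), JUNB, the probe named LMF1 and ZNF259P1 (each r = 0.997), over 9 arrays. JUNB encodes a subunit of the transcription factor AP-1 and AHR the aryl hydrocarbon receptor. With 1 mean per line, JUNB was higher in K57N than in WT cells by 4.39 and AHR by 1.15 on the log2 scale (adjusted p = 0.00155 and 0.0366). The probe named LMF1 gave 1.01 (adjusted p = 0.00969), and PRR22 and ZNF259P1 gave 0.65 and 0.43 (adjusted p = 0.0603 and 0.606). With the replicate number as a term, PRR22 and ZNF259P1 were called too, at adjusted p = 0.00747 and 0.0286. Such patterns were common, as 1292 of 16950 genes had r above 0.9 with MAP2K1.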

How the data were processed

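Total RNA from each experiment of each line was labeled with Cy3 and hybridized to 1 Agilent SurePrint G3 array (8x60K, version 2), read by Agilent Feature Extraction 10.10.1.1, per the labels. The authors deposited for each array the scanner's intensity, including the processed signal, from which background and spatial trends had been taken off but which had not been scaled between arrays. Their series table holds log2 values; 99.68% of these lay within 0.02 of the log2 processed signal less a constant for the array, with no centring of genes, and the step between arrays is not given in the sources used here.

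For the values here, each array was set on the log2 scale relative to the 75th percentile of its spots outside the controls. Uneven or outlying spots, 278 to 501 per array, were left out, and repeated spots were averaged. Of the 81 probes of the 7 genes and the wider cascade, 0 had a saturated spot. A gene was represented by its tested probe with the highest mean signal. Tests used limma 3.58.1 in R 4.3.3 with the data.table package (version 1.17.8), with 1 mean per line. Benjamini-Hochberg adjustment of p ran over the 25400 tested probes of a comparison, and a gene was called at an adjusted p below 0.05. Figures used Python 3.11.15 and matplotlib 3.10.9. The number of arrays limits the precision.

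Within a replicate number, deviations from the line means correlated between arrays over 19051 genes. The r ran from 0.69 to 0.88, from 0.58 to 0.78 and from 0.35 to 0.66 for replicates 1, 2 and 3. Correlations between arrays of different numbers were not computed. As replicate 1 was on slide 1 and replicates 2 and 3 on slide 2, pairing by number cannot be told apart from slide here. Values with the replicate number, or with slide, are given beside results that they change. Some genes of the wider cascade are not reported here and were left out of its counts. Gene names and hg19 positions are those of the array's annotation.

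Named genes were the 7 genes with all their probes, NRAS, up to 12 further genes of the wider cascade that were called with 1 mean per line or with slide, and the 5 genes most like MAP2K1. MAP2K6 was named outside this rule. The genes, lists and tests were chosen with earlier results of these data known. Alternatives were normexp background (offset 50), quantile normalization, dim probes kept, dim probes on any of the 9 arrays dropped, averaging of a gene's probes, fits of 2 lines only, slide or replicate number as a block, the deposited log2 values, the methods' t-test, and each array left out. Slide 2 alone, subtraction of the G and C trend (lowess, span 0.5), the other ARAF probe, and arrays left out with slide as a term were added after seeing the data.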

Additional observations from a re-analysis of the deposited data

How the results depend on the processing

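For MAP2K1, the direction held under every alternative run, and the call changed with the handling of slides. With the replicate block, the differences of K57N from WT and from F53S were 0.48 and 0.40, both called, as they were with the slide block (0.48 and 0.40) and on slide 2 only (0.43 and 0.39). The methods' t-test, adjusted, called the first alone (0.48, adjusted p = 0.0481). With the probe G and C trend subtracted and the replicate block, they were 0.45 and 0.36, both called. Leaving out each array in turn gave 0.44 to 0.50 for K57N against WT, 0.36 to 0.42 against F53S and 0.05 to 0.11 for F53S against WT.

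Of the genes other than MAP2K1, 0 were called in K57N against WT without a block, and 1, BRAF, with the replicate block, the slide block, slide 2 only and the G and C trend with the replicate block. Against F53S, 1 was called with the slide block. Wider cascade genes called in K57N against WT numbered 1, and 0 with normexp, 0 with no filter, 2 with quantile normalization, 6 with the replicate block, 7 with the slide block, 8 on slide 2 only and 7 with the G and C trend and replicate block. Against F53S they numbered 1, and 0 with normexp, no filter, 2 lines at a time, the methods' t-test and the G and C trend, 4 with the replicate block, the slide block and the G and C trend with the block, 6 on slide 2 only, and 0 to 1 with 1 array left out. The share of all genes called moved alongside: in K57N against WT it was 2.77% without a block, 1.4% with normexp, 0.822% with no filter, 3.19% with quantile normalization, 14.8% with the replicate block, 19.4% with the slide block, 22.6% on slide 2 only and 16.2% with the G and C trend and replicate block, and against F53S 1.42% without a block, 0.471% with normexp, 0.345% with no filter, 0.633% with 2 lines at a time, 0.251% with the methods' t-test, 1.63% with the G and C trend, and 8.91%, 13.4%, 15.3% and 9.48% with the replicate block, the slide block, slide 2 only and the G and C trend with the block. The cause of these changes was not tested.

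Directions turned in comparisons that were not called with 1 mean per line or a block at the probe that stands for the gene. ARAF in K57N against WT and F53S was 0.38 and 0.29 as the mean of its probes and 0.87 and 0.76 at its other probe, and its RefSeq probe ranged from -0.28 to 0.10 and from -0.34 to 0.03 with 1 array left out. Such ranges in K57N against WT were -0.44 to 0.10 for MAP2K2 and -0.45 to 0.07 for MAPK3, both above 0 without WT replicate 1, and -0.11 to 0.25 for HRAS. Against F53S they were -0.53 to 0.08 for MAP2K2, -0.48 to 0.04 for MAPK3 and -0.22 to 0.21 for HRAS. In F53S against WT they were -0.34 to 0.42, -0.31 to 0.37, -0.14 to 0.27 and -0.17 to 0.33 for MAP2K2, MAPK3, ARAF and HRAS, -0.31 to 0.46 for RRAS and -0.11 to 0.05 for RPS6KA2, which was 0.05 as the mean of its probes. On slide 2 only, HRAS in K57N against F53S was 0.12. KSR1, whose probes lay near background, could not be tested except with no filter.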
